A study of Arabidopsis thaliana with 32 samples.

Results

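Circadian clock genes were followed in roots of Arabidopsis thaliana seedlings grown in orbit, on the International Space Station, and in a matching ground unit. The set holds 10 genes, chosen by their identifiers: the morning MYB-type factors LHY and CCA1, their relatives RVE1 and EPR1, the pseudo-response regulators PRR9, PRR7 and PRR5, the evening genes LUX and GI, and the clock output gene CDF3. Of these, 7 had an entry in at least 1 of the 12 deposited tables, which together hold 5063 gene identifiers, and CCA1, PRR5 and PRR7 had none. The tables list only loci with an authors' q-value of at most 0.05, so a gene without an entry is called not listed, and that does not show that it was unchanged.

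RNA sequencing covered 8 groups with 4 samples each: light-grown Col-0 wild type and Sku6 roots, taken at 4 and at 8 days of age, from flight and from ground plates. Sku6 is a mutant line with the sku6 allele of SPIRAL1 (SPR1), a microtubule-associated protein. All groups grew on vertical plates in Veggie hardware under 100 to 135 µmol per square metre and second of photosynthetically active light. Ground plates stood in a chamber that repeated the station's temperature, carbon dioxide and lighting with a delay of 48 h, and all seedlings were fixed in RNAlater before the roots were dissected. Each sample was a pool, of 5 to 8 roots for the younger age and of 2 to 3 for the older, and libraries were made from 10 ng of RNA, per the labels' protocols. The labels give the age at harvest in days and no hour of harvest. In these bulk roots, fewer cells of a type and less RNA per cell cannot be told apart.

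The plant clock is a loop of transcription factors that repress each other in turn over the day. LHY and CCA1 peak around dawn and repress evening genes, the PRR proteins follow one another through the day and repress LHY and CCA1, and LUX acts at night with ELF3 and ELF4 in the evening complex, which represses day genes. GI, a large protein that peaks late in the day, ties the clock to flowering and to protein turnover through ZTL and FKF1, and CDF3 is a DOF-type factor whose transcript follows the clock. Transcripts of these genes cycle, so a group value is the level at 1 unstated point of the cycle.

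The promoters of the genes that the results turn on are shown first, as the 300 bases before the annotated start, 5′ to 3′ on the strand of the gene, from RefSeq's TAIR10.1 assembly. LHY, LUX, EPR1 and CDF3 are shown as the members listed lower in at least 3 flight comparisons, and RVE1 as the member listed higher in flight. Capitals mark each match, on either strand, to the evening element (AAAATATCT), to which LHY, CCA1 and REVEILLE proteins bind, and to the G-box (CACGTG), to which light-signalling bZIP and bHLH factors bind. The LHY window (chr1:37872-38171, minus strand) holds 1 G-box, 80 bases before the start.
LHY: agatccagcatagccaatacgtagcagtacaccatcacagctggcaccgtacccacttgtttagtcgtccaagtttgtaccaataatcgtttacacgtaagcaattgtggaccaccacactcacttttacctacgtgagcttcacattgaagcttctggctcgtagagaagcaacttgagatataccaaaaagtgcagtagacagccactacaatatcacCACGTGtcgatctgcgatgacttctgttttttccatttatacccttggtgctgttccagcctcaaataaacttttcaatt
The LUX window (chr3:17182742-17183041, plus strand) holds a G-box 193 bases and an evening element 53 bases before the start.
LUX: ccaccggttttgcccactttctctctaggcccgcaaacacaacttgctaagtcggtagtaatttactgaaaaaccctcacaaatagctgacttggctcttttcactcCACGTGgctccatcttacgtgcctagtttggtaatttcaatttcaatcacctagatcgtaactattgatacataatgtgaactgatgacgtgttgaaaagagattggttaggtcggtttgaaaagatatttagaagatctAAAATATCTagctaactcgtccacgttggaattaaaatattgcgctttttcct
The EPR1 window (chr1:6308244-6308543, minus strand) holds an evening element 50 bases before the start.
EPR1: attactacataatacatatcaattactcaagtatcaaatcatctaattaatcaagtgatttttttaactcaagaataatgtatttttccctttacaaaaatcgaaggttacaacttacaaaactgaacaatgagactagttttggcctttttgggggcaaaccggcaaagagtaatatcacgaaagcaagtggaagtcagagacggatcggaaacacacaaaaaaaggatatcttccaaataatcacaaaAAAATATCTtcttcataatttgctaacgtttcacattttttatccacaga
The RVE1 window (chr5:5692993-5693292, minus strand) holds a G-box 111 bases before the start.
RVE1: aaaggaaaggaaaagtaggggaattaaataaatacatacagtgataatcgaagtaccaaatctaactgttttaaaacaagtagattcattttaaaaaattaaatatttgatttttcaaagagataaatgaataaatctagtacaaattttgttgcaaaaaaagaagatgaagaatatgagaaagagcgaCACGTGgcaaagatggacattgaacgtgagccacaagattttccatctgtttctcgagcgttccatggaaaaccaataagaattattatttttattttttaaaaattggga
The CDF3 window (chr3:17506125-17506424, minus strand) holds neither.
CDF3: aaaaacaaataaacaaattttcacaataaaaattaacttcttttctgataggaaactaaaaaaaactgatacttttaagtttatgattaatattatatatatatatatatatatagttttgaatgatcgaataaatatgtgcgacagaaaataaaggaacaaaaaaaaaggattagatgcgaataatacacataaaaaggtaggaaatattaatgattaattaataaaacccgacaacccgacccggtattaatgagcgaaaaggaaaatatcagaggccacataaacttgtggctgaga

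A G-box lay in 6 of the 10 member windows (LHY, CCA1, PRR7, PRR9, LUX and RVE1), while 7.09% of the 27443 windows of the same length before protein-coding genes held one. An evening element lay in 3 (PRR5, LUX and EPR1), against 2.79% of all windows. The CCA1-binding site (AAAAATCT) was found in PRR5 only, against 7.94% of all windows, and the LUX-binding letters (GATACG or GATTCG) in PRR9 only, against 14.3%. In the windows of GI and CDF3 none of these letters was found, which says nothing of the factors. These motifs do not overlap each other in the windows shown, and a match is a description, not a binding site. Both G-box genes and evening element genes were among those listed lower in flight, and among those not listed.

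Several facts of the whole series bear on the values. In each group the authors' deposited tables give 1 FPKM value (fragment counts corrected for the length of the transcript and the size of the library), so no spread between the 4 samples was in hand and the depth is unknown. SPR1 stood at 7.21 to 13 FPKM in the Sku6 groups and at 1210 to 1422 FPKM in the Col-0 groups of the authors' deposited tables and was thus low in every group labelled Sku6. Of 10 root markers 4 were listed in any table. SCR, WER, COBL9 and NRT2.1 were at 8 to 18.6, 39.6 to 86.9, 4.34 to 9.38 and 0.313 to 6.86 FPKM in the authors' deposited tables. Of 10 shoot markers 9 were listed in any table, from 0.619 FPKM (LHCB2.2) to 323 FPKM (RBCS1A) in the authors' deposited tables. None of the 6 seed storage markers was listed. The value of a group can differ between tables. A member's level in 1 group differed by at most 1.04 times between tables, over the 6 of 36 member levels that stood in more than 1 table. Between 19464 and 20035 loci entered each of the authors' tests, a number derived from the deposited p- and q-values.

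Among the morning genes, LHY was the only member listed in all 4 flight comparisons, and it was lower in flight each time. LHY (AT1G01060; TAIR10.1 chromosome 1, 33365 to 37871, minus strand) stood at 4.96 FPKM in flight against 8.33 on the ground in 4-day Col-0, by the authors' deposited table. At 8 days the Col-0 levels were 7.66 in flight and 10.2 FPKM on the ground in the authors' deposited table. In Sku6 the authors' deposited tables gave 5.90 against 10.3 FPKM at 4 days and 7.42 against 11.8 at 8 days. All 4 flight levels thus lay below all 4 ground levels. LHY was listed in each of these comparisons, so each flight and ground pair differed by selection. Across pairs the gap was small and not tested: flight Col-0 at 8 days stood at 7.66 and ground Col-0 at 4 days at 8.33 FPKM. The decreases were 1.68-fold (q = 0.00331) and 1.33-fold (q = 0.0467) in Col-0 at 4 and 8 days and 1.75-fold (q = 0.00228) and 1.59-fold (q = 0.00373) in Sku6, by the authors' deposited tables. The 8-day Col-0 call was the one nearest to the q-value threshold among all entries of the set.

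From lowest to highest, the LHY levels ran from flight Col-0 and Sku6 at 4 days, through flight Sku6 and Col-0 at 8 days, ground Col-0 at 4 and 8 days and ground Sku6 at 4 days, to ground Sku6 at 8 days, a 2.34-fold range. Where neighbours in that order have a table of their own, it did not list LHY, and the levels of flight Col-0 and flight Sku6 at 8 days were 1.02 times apart. Age made the only other LHY entry: flight Col-0 roots rose 1.46-fold from 5.14 to 7.48 FPKM between 4 and 8 days (q = 0.0209 in the authors' deposited table). Levels set across tables were 1.23 times higher at 8 days in ground Col-0, 11.8 against 10.3 FPKM in ground Sku6 and 1.26 times in flight Sku6, and none of these comparisons listed LHY. CCA1 (AT2G46830; chromosome 2, 19245591 to 19248915), the closest relative of LHY and its partner in the morning loop, was not listed in any table and has no level here.

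**Figure D1:**
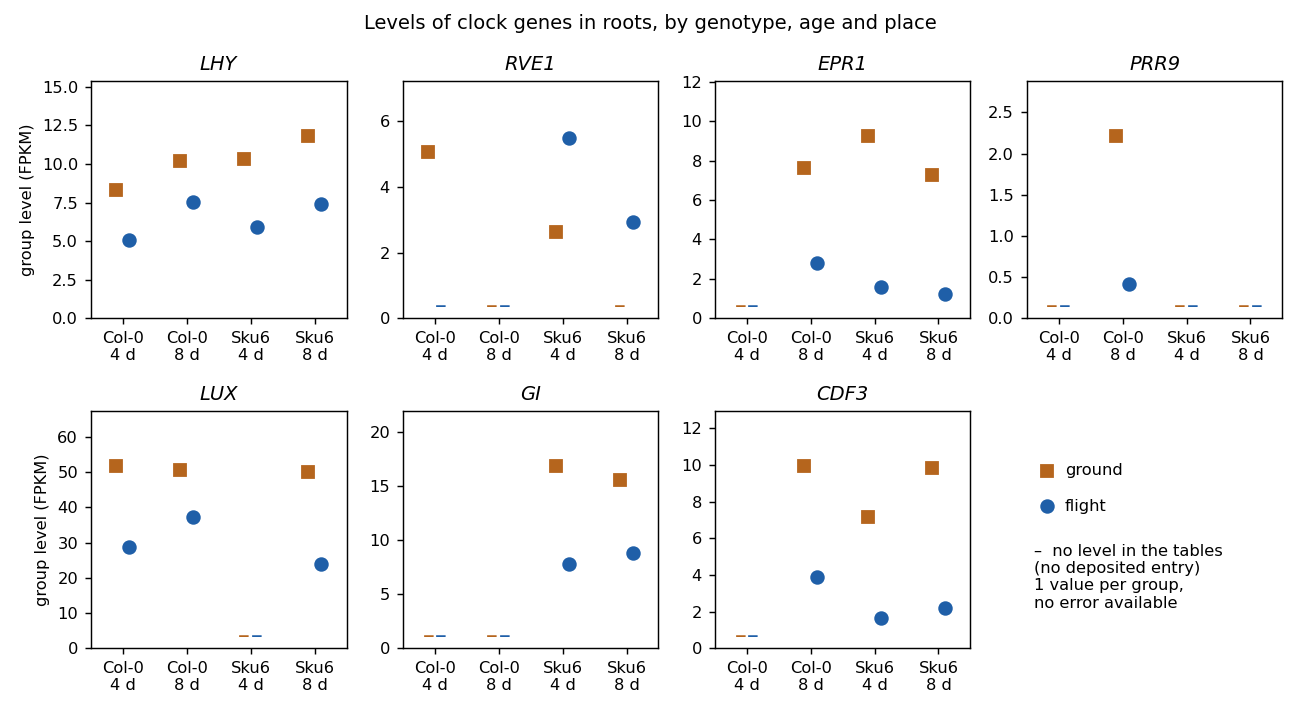
Group levels in FPKM (vertical axes, linear from 0, a scale per gene) of the 7 clock genes with an entry, for Col-0 and Sku6 roots at 4 and 8 days. Squares are ground groups and circles flight groups, each 1 deposited value (median over tables) with no error available, and a dash marks a group without a level. Each flight circle of LHY, EPR1, PRR9, LUX, GI and CDF3 lies below its ground square, while RVE1 in 4-day Sku6 is reversed. A group has a level only where a comparison listed the gene, so the pairs shown differ by selection.

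EPR1 (REVEILLE 7, AT1G18330; chromosome 1, 6305814 to 6308243), an evening element-binding MYB-type factor related to LHY, had the lowest flight to ground ratios of the set in Sku6. Its levels were 1.58 FPKM in flight against 9.27 on the ground in 4-day Sku6, by the authors' deposited table. At 8 days the authors' deposited table gave 1.23 against 7.27 FPKM in Sku6. In 8-day Col-0 the authors' deposited table had 2.82 FPKM in flight and 7.61 on the ground. The 3 ground levels lay between 7.27 and 9.27 FPKM and the 3 flight levels between 1.23 and 2.82. EPR1 has levels only in comparisons that listed it, so each pair differed by selection and nothing is read from the gap. EPR1 was 5.85-fold lower in 4-day Sku6 (q = 0.0133), 5.90-fold lower in 8-day Sku6 (q = 0.00373) and 2.70-fold lower in 8-day Col-0 (q = 0.00263), by the authors' deposited tables. By size of the decrease it ranked 10 of 444 lower loci in 4-day Sku6, 2 of 282 in 8-day Sku6 and 17 of 560 in 8-day Col-0. The flight levels are low, and with 1 FPKM added to each group the log2 value went from −2.56 to −1.89 in 8-day Sku6 and from −2.55 to −1.99 in 4-day Sku6. EPR1 was not listed in 4-day Col-0, and no comparison of ages or genotypes listed it.

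RVE1 (REVEILLE 1, AT5G17300; chromosome 5, 5690225 to 5692992), a close relative of EPR1 that promotes auxin synthesis in the morning, was the one member listed higher in flight. In 4-day Sku6 it stood at 5.40 FPKM in flight against 2.61 on the ground, 2.07-fold higher (q = 0.00771 in the authors' deposited table), while EPR1 was lower in the same roots. The genotype comparison on the ground at 4 days put Sku6 at 2.63 and Col-0 at 5.07 FPKM, 1.93-fold lower in Sku6 (q = 0.00971 in the authors' deposited table). Between 4 and 8 days, flight Sku6 roots fell 1.91-fold from 5.56 to 2.92 FPKM (q = 0.00854 in the authors' deposited table). Ground Sku6 at 4 days and flight Sku6 at 8 days were thus both low, and flight Sku6 and ground Col-0 at 4 days both high. No table compares the groups within either pair, so their likeness was not tested. The other 4 groups have no RVE1 level.

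Of the pseudo-response regulators, repressors of LHY and CCA1 that act in the order PRR9, PRR7, PRR5 through the day, PRR9 (AT2G46790; chromosome 2, 19232607 to 19235179) alone was listed, and once. In 8-day Col-0 it stood at 0.411 FPKM in flight against 2.22 on the ground, 5.39-fold lower (q = 0.00263 in the authors' deposited table), rank 3 of 560 lower loci. Both values are low. With 1 FPKM added to each group the log2 value went from −2.43 to −1.19. PRR7 (AT5G02810) and PRR5 (AT5G24470) were not listed in any table.

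Evening genes were lower in flight wherever they were listed. LUX (AT3G46640; chromosome 3, 17183042 to 17186959), the DNA-binding member of the evening complex, had the highest FPKM of the 7 members with a level, at 23.8 to 51.7 over the 6 groups with a level. In 4-day Col-0 it was at 28.8 FPKM in flight and 51.7 on the ground, and in 8-day Col-0 at 37.3 and 50.7, by the authors' deposited tables. In 8-day Sku6 the levels were 23.7 in flight and 49.9 FPKM on the ground in the authors' deposited table. The 3 ground levels lay between 49.9 and 51.7 FPKM, and the flight levels were all lower and further apart. LUX has levels only in groups of comparisons that listed it, so each pair differed by selection. Decreases were 1.80-fold (q = 0.00185), 1.36-fold (q = 0.0114) and 2.1-fold (q = 0.00373) in that order, by the authors' deposited tables. LUX was not listed in 4-day Sku6. It was also the one member with a genotype entry in flight: at 8 days Sku6 stood at 23.9 and Col-0 at 37.2 FPKM, 1.56-fold lower in Sku6 (q = 0.0344 in the authors' deposited table). On the ground at 8 days, where LUX was not listed, the levels of both genotypes differed by 1.02 times across tables.

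GI (AT1G22770; chromosome 1, 8061751 to 8067790) was listed in Sku6 only. It stood at 7.79 FPKM in flight against 16.9 on the ground at 4 days, 2.16-fold lower (q = 0.0180 in the authors' deposited table). At 8 days it stood at 8.77 against 15.5 FPKM, 1.77-fold lower (q = 0.0420 in the authors' deposited table). Ground levels were about the same at both ages, and so were flight levels: ratios of 8 to 4 days were 0.922 and 1.13, and neither comparison of ages listed GI. Col-0 has no GI level here, so whether the flight response of GI differs between genotypes was not tested.

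The output gene CDF3 (AT3G47500; chromosome 3, 17503883 to 17506124), whose family represses flowering and is degraded through GI and FKF1, was listed lower in flight in the same 3 comparisons as EPR1. In 8-day Col-0 it stood at 3.87 FPKM in flight against 9.95 on the ground, 2.57-fold lower (q = 0.00984 in the authors' deposited table). In Sku6 it stood at 1.65 against 7.17 FPKM at 4 days, 4.35-fold lower (q = 0.0145 in the authors' deposited table). At 8 days the Sku6 levels were 2.18 and 9.85 FPKM, 4.52-fold lower (q = 0.00373 in the authors' deposited table). The ground levels were 7.17 to 9.95 FPKM and the flight levels 1.65 to 3.87. CDF3 has levels only in comparisons that listed it, so each pair differed by selection and nothing is read from the gap. By size, CDF3 ranked 22 of 560, 20 of 444 and 7 of 282 lower loci in these tables. With 1 FPKM added, the log2 value of 4-day Sku6 went from −2.12 to −1.62. No comparison of ages or genotypes listed CDF3.

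The read assignment limits some of these values. The loci that the files give for LUX, RVE1, EPR1 and CDF3 span other annotated genes, 13 in all, and none of the 13 was listed in any table. LUX is overlapped over 1507 bases by AT3G46650 on the opposite strand, and RVE1 over 225 bases by AT5G17305. Whether reads were counted by strand is not given in the sources used here, so reads of LUX or RVE1 and of these partners cannot be told apart.

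Taking the flight comparisons as a whole, 16 of the 17 entries of the set were lower in flight. In 4-day Col-0, 2 of 10 members were listed lower and none higher, with 4.11% of all tested loci listed lower. In 8-day Col-0, 5 of 10 were lower, with 2.8% of all loci lower. In 4-day Sku6, 4 were lower and 1 higher, with 2.28% of all loci lower and 2.18% higher. In 8-day Sku6, 5 were lower, with 1.43% of all loci lower. Decreases of at least 2-fold made up 0, 3, 3 and 3 of these entries, with 0.887%, 0.26%, 0.779% and 0.232% of all loci lower by that much. The members were chosen with results of these data known, so these counts describe the set and no test was made of them. A median over all tested loci was not computed, since loci above the q-value threshold have no values here. Flight and ground plates were grown as separate runs, and flight and run cannot be told apart.

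**Figure D2:**
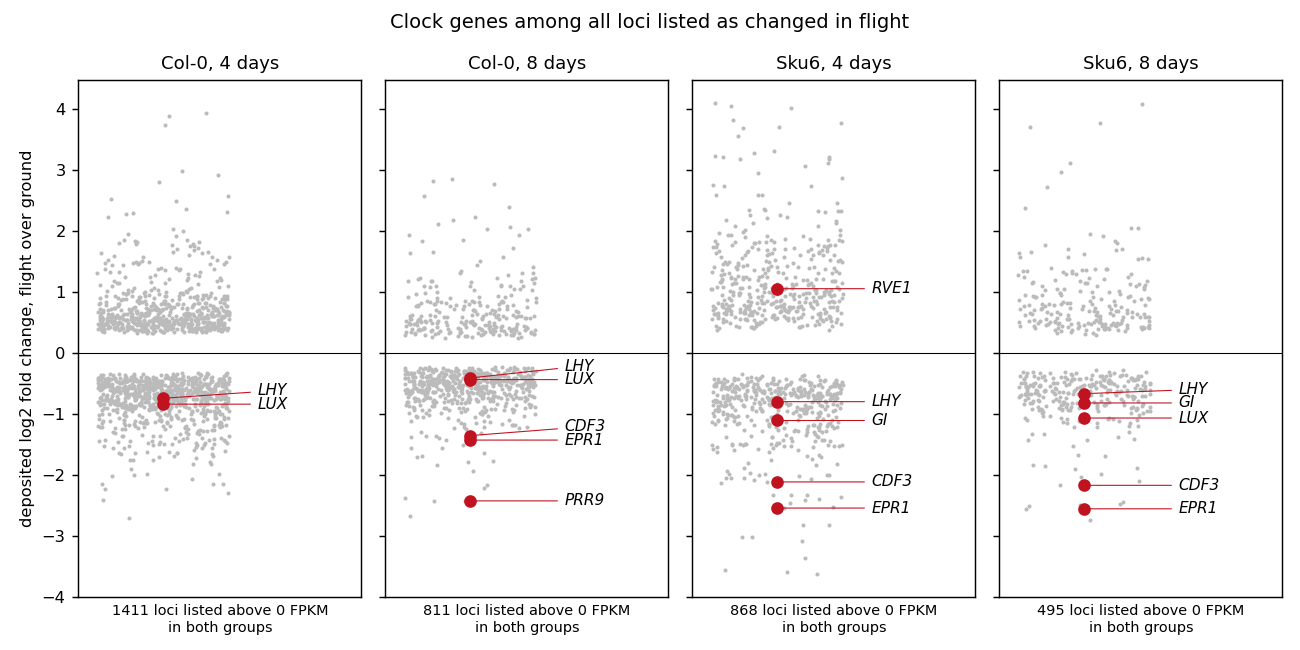
Deposited log2 fold changes of flight over ground (vertical axis) for the loci listed in each of the 4 flight comparisons above 0 FPKM in both groups (grey points, spread sideways at random), with clock genes in red. EPR1, CDF3 and PRR9 lie toward the lower end, LHY closest to 0 among the members in each comparison, and RVE1 among the higher loci of 4-day Sku6.

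The responses of the genotypes can be set side by side only where both list a gene. At 8 days, 4 members were listed in both, and each had the more negative log2 value in Sku6. The share of all loci listed in both that did so was not computed, so nothing is read from this count. In Col-0 and Sku6 the authors' deposited tables gave −0.42 and −0.67 for LHY, −0.44 and −1.07 for LUX, −1.43 and −2.56 for EPR1, and −1.36 and −2.18 for CDF3. At 4 days LHY alone was listed in both, at −0.75 and −0.80 in the authors' deposited tables. Whether the flight response differs between genotypes was not tested, since the tables hold no values per sample. The direct genotype comparison in flight at 8 days listed LUX and not LHY, EPR1 or CDF3.

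For age and genotype, the members' counts were 0 or 1 of 10 in each comparison, too few to set apart from the share of all loci. Ground roots of neither genotype listed a member between 4 and 8 days, with 11.2% of all loci listed in ground Col-0 and 9.43% in ground Sku6. In flight, LHY was listed higher at 8 days in Col-0 (1 of 10 members, with 3.33% of all loci listed higher) and RVE1 lower in Sku6 (1 of 10, with 4.43% of all loci lower). Sku6 against Col-0 listed RVE1 lower on the ground at 4 days (1 of 10, with 1.48% of all loci lower) and LUX lower in flight at 8 days (1 of 10, with 0.371%). No member was listed for genotype in flight at 4 days or on the ground at 8 days, where 2.02% and 1.34% of all loci were listed. These calls are from the authors' test, for which the submitters' processing notes name Cuffdiff, and counts at an unadjusted p under 0.05 cannot be given, since only loci past the q-value threshold are listed.

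**Figure D3:**
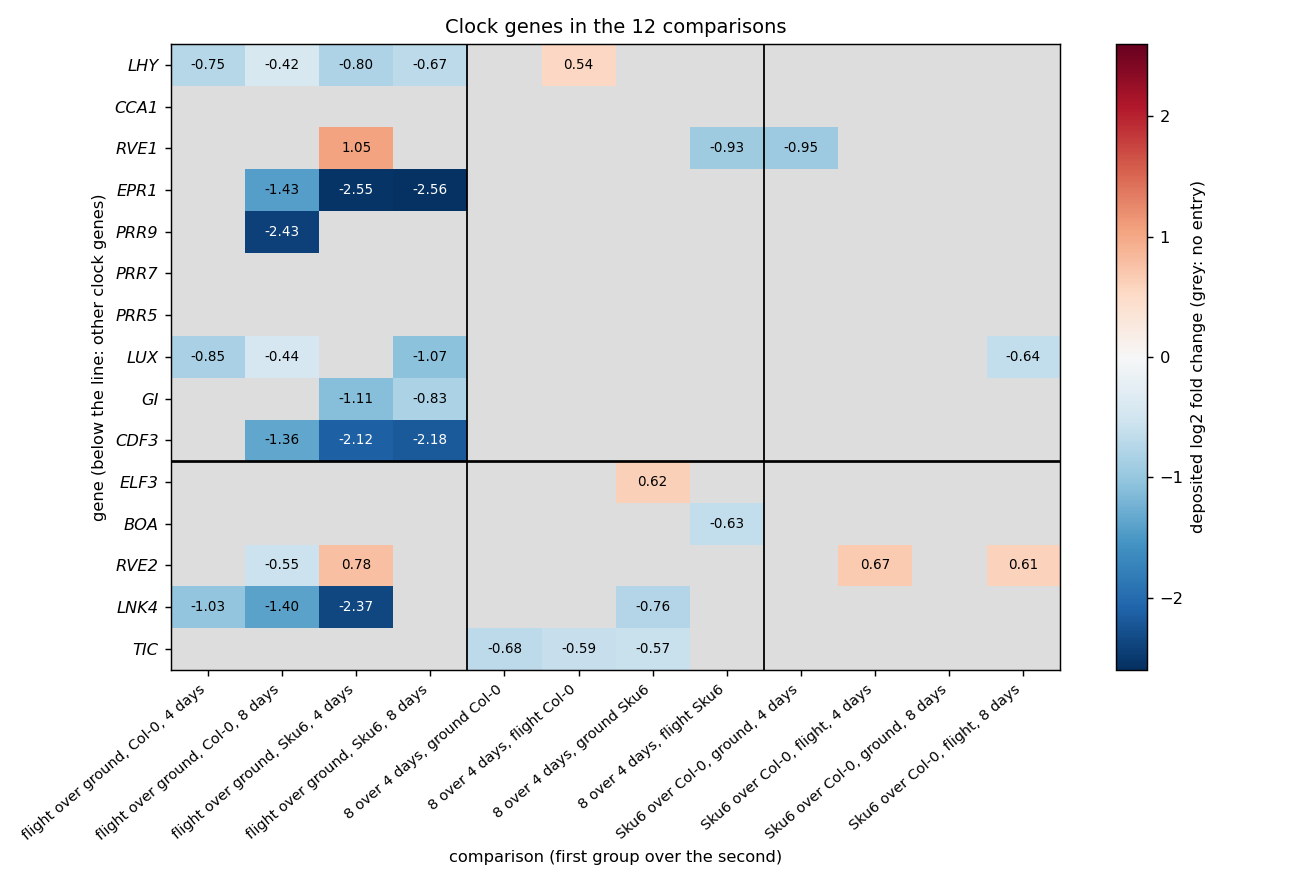
Deposited log2 fold changes (colour and number) of the 10 clock genes, above the line, and of 5 other clock genes with an entry, below it, in the 12 comparisons; grey cells have no entry. The 4 flight columns at the left hold 17 entries of the set, 16 of them negative, the 4 columns of age 2 and the 4 of genotype 2. The members were chosen with results of these data known, so these counts are a description. The shares of all loci are given in the text.

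Of 23 other clock genes, 5 were listed in any table and 18 in none. As a rough background, the loci in any table came to 24% of the number tested in a comparison, so nothing is read from this count or from those of the outputs and receptors below. Not listed were, among others, TOC1, the evening partner of LHY and CCA1 in the loop, and ELF4. LNK4 (AT5G06980), of the LNK family, whose best known members are coactivators that work with REVEILLE proteins, was lower in flight in 3 of the 4 comparisons. In 4-day Sku6 it stood at 1.20 FPKM in flight against 6.19 on the ground, 5.15-fold lower (q = 0.00228 in the authors' deposited table). In Col-0 it was 2.04-fold lower in flight at 4 days (q = 0.0331) and 2.63-fold lower at 8 days (q = 0.00828), by the authors' deposited tables, from ground levels of 4.44 and 4.50 FPKM. LNK4 also fell with age in ground Sku6, from 6.38 to 3.76 FPKM (q = 0.0385 in the authors' deposited table), and it was not listed in flight against ground in 8-day Sku6.

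RVE2 (CIR1, AT5G37260), a MYB-type relative of RVE1 and EPR1, changed in opposite directions. It was lower in flight in 8-day Col-0, at 29.3 against 42.8 FPKM (q = 0.00263 in the authors' deposited table). In 4-day Sku6 it was higher in flight, at 55.0 against 32.0 FPKM (q = 0.00228 in the authors' deposited table), the direction RVE1 had there. Flight Sku6 exceeded flight Col-0 by 1.59-fold at 4 days (q = 0.00889) and by 1.52-fold at 8 days (q = 0.00750), by the authors' deposited tables. TIC (AT3G22380), a nuclear regulator of the clock, was lower at 8 than at 4 days in 3 of the 4 age comparisons, 1.60-fold in ground Col-0, 1.51-fold in flight Col-0 and 1.49-fold in ground Sku6 (q = 0.00107, 0.00673 and 0.00861 in the authors' deposited tables). The evening complex gene ELF3 rose 1.54-fold with age in ground Sku6 (q = 0.0337) and BOA, the closest relative of LUX, fell 1.55-fold with age in flight Sku6 (q = 0.0283), by the authors' deposited tables; both are named here as exceptions to the rule of 3 tables.

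Of 10 clock output genes beside CDF3, PIF5 alone was listed. PIF5 (AT3G59060), a bHLH factor of growth and light signalling, was 3.35-fold higher in flight in 4-day Col-0, at 2.52 against 0.753 FPKM (q = 0.00185 in the authors' deposited table). It was 10.5-fold lower at 8 than at 4 days in flight Col-0 and 6.68-fold lower in flight Sku6 (q = 0.00174 and 0.00248 in the authors' deposited tables). The 8-day levels of 0.250 and 0.310 FPKM in the authors' deposited tables are low, so these folds rest on small values. CDF1, CDF2, CDF5, CO, COL1, COL2, GRP7, GRP8 and PIF4 were not listed in any table. Of 5 light receptor genes, PHYB was listed lower in flight in 4-day Col-0, at 3.57 against 5.63 FPKM (q = 0.00814 in the authors' deposited table), and is also named as an exception.

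Markers of shoot tissue, which a dissected root could carry, moved in part of the same comparisons. Signal of these genes from carried shoot tissue and from the light-grown roots themselves cannot be told apart here. Of 10 such genes, 2 were lower in flight in 4-day Col-0 and 5 in 8-day Col-0, and in 4-day Sku6 3 were higher and 1 lower. The shares of all loci were 4.11% and 2.8% lower in Col-0, and 2.18% higher and 2.28% lower in 4-day Sku6. The summed levels of the listed markers were 207 FPKM in flight against 267 on the ground, 239 against 454, and 152 against 82.3 in that order, from the authors' deposited tables. Each sum holds only the markers listed in that comparison, so the genes differ between sums and the differences were selected. In flight 4-day Col-0, RBCS1A made up 200 of the 207 FPKM. No measure of shoot tissue is read from these sums. No shoot marker entry was at 0, and the part of shoot tissue in the clock results was not tested in these comparisons. In 8-day Sku6, 5 clock genes were lower in flight and 0 of the 10 shoot markers were listed. Of 19786 tested loci there, 282 were listed lower and 214 higher, so 0 of 10 cannot be set apart from the share of all loci. In 4-day Sku6 the Rubisco small subunit genes RBCS1B, RBCS2B and RBCS3B were higher in flight, and the antenna gene LHCB2.1 lower, while of the clock genes RVE1 was higher and LHY, GI, EPR1 and CDF3 were lower. The RBCS genes are near-identical copies, so the split of reads between them is uncertain. Beside the other entries of the set, 7 of the 10 shoot markers were lower at 8 days in flight Col-0, where LHY was higher, and 7 in flight Sku6, where RVE1 was lower, with 3.45% and 4.43% of all loci lower. No shoot marker was listed in the genotype tables that listed RVE1 or LUX, where 573 of 19556 and 280 of 19944 loci were listed. These counts of 0 also cannot be set apart from the share of all loci. Of 10 root markers, 1 was listed in each of 3 flight comparisons, each a different gene. WER was 1.89-fold higher in 4-day Col-0, SCR 1.32-fold in 8-day Col-0 and NRT2.1 2.08-fold in 4-day Sku6, by the authors' deposited tables. Listed higher were 608 of 19612, 252 of 20035 and 425 of 19507 loci in that order, so counts of 1 cannot be set apart from these shares. In 8-day Sku6 no root marker was listed in flight against ground. In flight at 8 days SCR was 1.69-fold lower in Sku6 than in Col-0 by the authors' deposited table that also listed LUX lower. It was 1 of the 10 root markers, with 0.371% of all loci lower there. With age in flight, NRT2.1 was lower in Col-0, and NRT2.1 and SCR were lower in Sku6, with 3.45% and 4.43% of all loci lower. The part of root cell types in the clock results was not tested.

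For the 3 members with the most entries, the loci of most similar pattern were found by counting the tables that list them in the same direction as the member. Over its 5 tables LHY was matched in every one by 32 of 4433 other single-gene loci. Among the nearest were AT5G23920, with no further entries, and AT3G22620 and AT2G44940, with 1 further entry each. LUX was matched over its 4 tables by 3 loci: AT1G20823 and the early light-induced genes ELIP2 and ELIP1, with 1, 2 and 4 further entries. All 3 were also lower in flight in 4-day Sku6, where LUX was not listed. The fourth nearest was UMAMIT11, a transporter gene, with 3 tables and no further entry. RVE1 was matched over its 3 tables by 5 loci, the nearest being XTH30, a xyloglucan endotransglucosylase gene, AT5G46040, AT1G09932 and AT1G03220, with 1, 2, 3 and 5 further entries. The comparisons share groups, so these counts are descriptions.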

How the data were processed

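RNA from dissected roots was sequenced in 32 samples, 4 in each of 8 groups (SMART-Seq v4 cDNA with Nextera libraries, per the labels' protocols). The submitters' processing notes name Trimmomatic 0.36, FastQC 0.11.2, STAR 2.5.1b, Picard, Cufflinks, Cuffdiff and TAIR10; no order or setting of these steps is known here. As deposited, the data are 12 tables, each of 2 groups, with 1 FPKM value per group, the log2 fold change, and the p-value and q-value of the authors' test. Per the file headers every entry is called significant, and the entries have q-values of at most 0.05. Values per sample and depth are not in hand, so no test was added and no error is given. Loci tested per table were worked back from the deposited p-value and q-value pairs, a step tested on simulated data.

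Members were matched by identifier. A level is the median of a group's FPKM over the tables that list the gene. Promoters and positions come from RefSeq's TAIR10.1. Named beside the members were list genes with entries in at least 3 tables, stated exceptions, and the 4 most similar loci of the 3 members with the most entries. Of these similar loci, 1 is not reported here. The members and lists were chosen with earlier results of these data known. Alternatives were a q-value of at most 0.01, a log2 size of at least 1, a level of at least 5 FPKM, merged loci left out, 0.1 or 1 FPKM added, and other ways of setting levels. Python 3.11.15 with pandas 2.3.3, numpy 2.4.6 and matplotlib 3.10.9 was used.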

Additional observations from a re-analysis of the deposited data

How the results depend on the processing

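With a log2 size of at least 1, the count of clock genes listed went from 2 to 0 in flight over ground of 4-day Col-0. It went from 5 to 3 in 8-day Col-0, from 5 to 4 in 4-day Sku6 and from 5 to 3 in 8-day Sku6. Under the same limit it went from 1 to 0 for age in flight Col-0, for age in flight Sku6, for genotype on the ground at 4 days and for genotype in flight at 8 days. With a q-value of at most 0.01 it went from 5 to 3 in 8-day Col-0, from 5 to 2 in 4-day Sku6 and from 5 to 4 in 8-day Sku6. At that q-value it also went from 1 to 0 for age in flight Col-0 and for genotype in flight at 8 days. Both limits are stricter by construction and leave fewer entries. With at least 5 FPKM in a group, 1 count changed, from 5 to 4 in 8-day Col-0, and 4 of the 12 counts were 0 at the start and could not fall. No member entry was a merged locus, so leaving those out could change nothing. With 1 FPKM added, PRR9 went from −2.43 to −1.19 and EPR1 in 8-day Sku6 from −2.56 to −1.89, both by over 1.5 times as a fold, and the other 19 values moved by less than that. With 0.1 FPKM added, all 21 did. Adding the same amount to both groups cannot change a sign. Of the 36 group levels, 30 come from 1 table, so only 6 could differ between the lowest, median and highest over tables. Rescaling the tables to each other could move all of them, and over these settings the levels were 0.967 to 1.03 times those reported. No paired analysis was possible because the tables hold 1 value per group, and for the same reason no replicate could be left out. The depth is unknown, so what it limits could not be given.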

Other observations

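In flight at 8 days, EPR1 was 2.29-fold lower and CDF3 1.78-fold lower in Sku6 than in Col-0 by group levels taken from separate flight tables, yet the genotype table did not list either. LUX, 1.56-fold lower there, was listed (q = 0.0344 in the authors' deposited table). On the ground at 8 days the levels of EPR1, CDF3 and LUX in Sku6 were 0.955, 0.990 and 0.985 times those in Col-0, set across separate flight tables. These levels exist only because the genes were listed in flight against ground. Whether the genotypes differ more in flight than on the ground was not tested. In the 1000 bases before the start, the evening element was found in PRR5, LUX, GI and EPR1, against 7.24% of all protein-coding genes, and the LUX-binding letters in 6 of the 10 genes, against 39.8%.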
